A study of Homo sapiens with 6 samples.

Results

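Epithelial-mesenchymal transition (EMT) genes were examined in H661, a human large cell lung carcinoma line, after knockdown of SALL4, a zinc finger transcription factor of embryonic stem cells that many carcinomas re-express. The 10 genes are the cadherins CDH1 and CDH2, the epithelial surface protein EPCAM, the mesenchymal proteins VIM and FN1, and the EMT transcription factors ZEB1, ZEB2, SNAI1, SNAI2 and TWIST1. They were taken by name among the 18404 genes that an array probe set assigned to a single symbol could measure, and all 10 had one. Total RNA of 6 cell samples was measured on 1 Affymetrix array each. The control group (Scr-sh, n = 3) had received a scrambled short hairpin RNA (shRNA) and the knockdown group (SALL4-sh, n = 3) a single SALL4 shRNA, both delivered by lentivirus, so all 6 samples were transduced cells. The time from transduction to RNA extraction is not given for the arrays in the sources used here. With 1 hairpin per group, the loss of SALL4 and any other effect of that hairpin cannot be told apart. The study's methods speak in general of independent experiments, but neither they nor the labels say for the arrays that a group's 3 samples were separate cultures, and the p-values then reflect only the sample-to-sample spread, which may be technical. The arrays measured RNA of whole cultures, in which fewer cells of a type and less RNA per cell cannot be told apart.

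In EMT, epithelial cells lose the junctions that hold them in a sheet and gain the shape and motility of mesenchymal cells. CDH1 (E-cadherin) joins neighboring epithelial cells, and CDH2 (N-cadherin) often takes its place in cells that have passed through EMT. The ZEB, SNAI and TWIST proteins drive the transition, and the ZEB and SNAI proteins bind E-box elements, short DNA motifs with the core CANNTG, in the CDH1 promoter and repress it. The microRNAs of the miR-200 family in turn pair with ZEB1 and ZEB2 RNA and lower the level of both, which makes the ZEB factors and the family mutual repressors.

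The mature miR-200 sequences are shown because their seeds, bases 2 to 8 in capitals, divide the family into the pair of groups by which it recognizes ZEB RNA. They were taken from RefSeq with GRCh38.p14 positions. MIR200B, MIR200A and MIR429 lie together on the plus strand of chromosome 1, with mature sequences at chr1:1167160-1167181, chr1:1167916-1167937 and chr1:1169055-1169076, and MIR200C and MIR141 lie on the plus strand of chromosome 12, at chr12:6963742-6963764 and chr12:6964155-6964176. The seed AACACUG is shared by the following sequences.
hsa-miR-141-3p: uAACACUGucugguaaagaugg
hsa-miR-200a-3p: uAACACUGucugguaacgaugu
The seed AAUACUG is shared by the others.
hsa-miR-200b-3p: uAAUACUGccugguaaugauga
hsa-miR-200c-3p: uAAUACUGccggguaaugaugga
hsa-miR-429: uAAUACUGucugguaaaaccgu

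The 250 bases before the start of ZEB2, the EMT factor that fell, were read from the RefSeq promoter table (GRCh38.p14, chr2:144520120-144520369, minus strand, printed in the direction of transcription). The capitals mark its CANNTG element, a motif that reads alike on both strands.
ZEB2: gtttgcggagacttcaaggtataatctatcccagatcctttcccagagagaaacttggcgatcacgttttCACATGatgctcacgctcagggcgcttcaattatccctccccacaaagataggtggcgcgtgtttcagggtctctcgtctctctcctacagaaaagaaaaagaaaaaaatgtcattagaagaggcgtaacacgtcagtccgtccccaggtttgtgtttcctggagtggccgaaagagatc
No CAGGTG or CACCTG, the E-box form and its reverse complement that ZEB and SNAI proteins prefer, was in the ZEB2 window of 300 bases, which runs to 50 bases after the start. Of all 35116 such promoter windows, 20.6% held CAGGTG or CACCTG and 68.7% held CANNTG. Among the other genes with an entry, 2 of the 7 ZEB1 windows held CAGGTG or CACCTG, and those of CDH2, VIM and FN1 held neither. CDH1, SNAI1, SNAI2, TWIST1 and EPCAM had no entry, so the CDH1 promoter was not searched. A match is only a description of the letters and not a binding site.

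SALL4 itself, the targeted gene, was read first. Its normalized intensity was 126, 104 and 130 on the Scr-sh arrays and 33.6, 31.9 and 26.5 on the SALL4-sh arrays, so every knockdown array lay below every control. Its log2 fold change was -1.97 (SE 0.14, adjusted p = 0.0159, limma), an expression ratio of 0.255, and the call was kept only without Scr-sh replicate 2 when an array was left out (adjusted p = 0.0309, and 0.0523 to 0.0741 without another array). The intensities are linear values with a floor of 8, at which 38.8% to 40.4% of the values of an array stood, so a level at 8 is only an upper bound. Across the series limma called 218 genes higher (1.18%) and 244 lower (1.33%) at an adjusted p below 0.05, which is 2.51% of all genes tested. Pearson correlations of log2 values over all probe sets were 0.969 to 0.980 within a group and 0.955 to 0.965 between groups.

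Of the 10 EMT genes, 1 rose and 1 fell after SALL4 knockdown. CDH1 was the gene that rose, from a level at or near the array floor, and ZEB2 was the gene that fell, to 0.538 of the control level. The other 8 did not pass the test, and FN1 was at the floor on all 6 arrays. The median log2 fold change of the 10 genes was 0.0043, beside a median of 0 over all genes. The groups did not overlap for 2 of the 9 genes that were above the floor on some array, compared with 27.5% of all genes so measured.

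**Figure D1:**
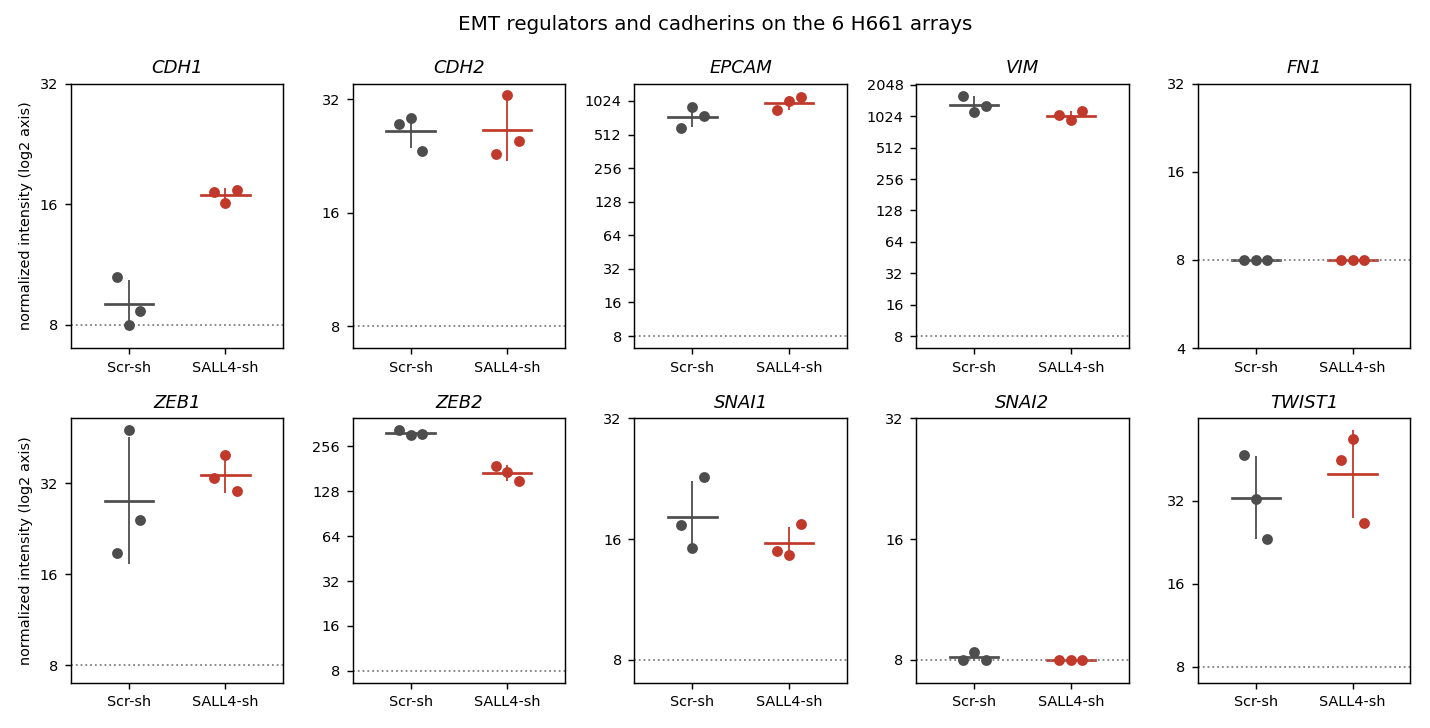
Normalized intensity (log2 axis) of the 10 EMT genes on the 3 Scr-sh arrays (grey) and 3 SALL4-sh arrays (red). Points are arrays, horizontal lines the mean and vertical lines 1 SD of log2 values, and a dotted line marks the floor at 8; CDH1 in SALL4-sh (16.1 to 17.3) lies above every control and ZEB2 (149 to 190) below every control.

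CDH1 encodes E-cadherin, the adhesion protein whose loss is a common mark of EMT. Its intensity was 10.5, 8 and 8.68 on the Scr-sh arrays and 17.2, 16.1 and 17.3 on the SALL4-sh arrays. All knockdown values lay above all control values, and both groups were close to the floor. The log2 fold change was 0.91 (SE 0.12, adjusted p = 0.0456, limma), a ratio of 1.87 with a 95% confidence interval of 1.51 to 2.32. The exact two-sided permutation test of the 6 values gave p = 0.1, the smallest that 3 against 3 allow. The control of replicate 2 stood at the floor, and with a floor of 16 in place of 8 the log2 fold change was 0.08 (adjusted p = 0.390). The call was kept without Scr-sh replicate 1 (adjusted p = 0.0438) and was lost without any one of the other 5 arrays (adjusted p = 0.0686 to 0.155).

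CDH2 encodes N-cadherin. It measured 27.5, 28.5 and 23.4 in Scr-sh and 22.9, 32.8 and 24.9 in SALL4-sh, with overlapping groups. Its log2 fold change was 0.01 (SE 0.17, adjusted p = 1.0), and the interval of the ratio, 0.732 to 1.38, leaves room for a change of either sign. Relative to CDH2 on the same array, and set to a control mean of 0, the log2 level of CDH1 was -0.28 to 0.16 in Scr-sh and 0.53 to 1.14 in SALL4-sh. The shift of CDH1 against CDH2 was thus 0.90, with groups apart (exact two-sided permutation p = 0.1, 0.167 after Benjamini-Hochberg adjustment over the 5 pairs compared). As CDH2 hardly changed, the shift mostly restates the change of CDH1 and shares its limit near the floor. With a floor of 16 the log2 fold changes were 0.08 for CDH1 and 0.01 for CDH2.

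EPCAM encodes an epithelial adhesion and signaling protein that is widely used as a carcinoma marker. Its brighter probe set read 590, 898 and 749 in Scr-sh and 843, 1032 and 1113 in SALL4-sh. A single Scr-sh array, replicate 2, lay within the knockdown range. The log2 fold change of 0.43 (SE 0.20) did not pass the test (adjusted p = 0.410, limma), and the ratio was 1.35 (95% interval 0.925 to 1.96). A dimmer EPCAM probe set, annotated with the same transcripts, read 200, 273 and 228 in Scr-sh and 230, 225 and 200 in SALL4-sh, a log2 difference of -0.09. The log2 levels of the EPCAM probe sets thus differed in the sign of their change, and their Pearson correlation over the 6 arrays was 0.155.

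**Figure D2:**
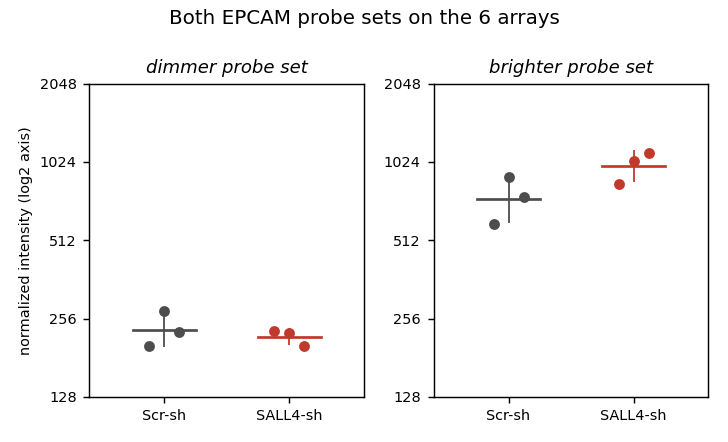
Normalized intensity (log2 axis) of the dimmer (left) and brighter (right) EPCAM probe set on each array, with the mean and 1 SD of log2 values. The brighter probe set was at 746 ± 154 in Scr-sh and at 996 ± 139 in SALL4-sh, whereas the dimmer one was 234 ± 36.5 and 218 ± 15.8 (SD, n = 3 each).

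ZEB2 (SIP1) is a zinc finger repressor of CDH1. Its intensity was 327, 307 and 310 in Scr-sh and 190, 172 and 149 in SALL4-sh, so the groups stood well apart and above the floor. The log2 fold change was -0.89 (SE 0.10, adjusted p = 0.0364, limma), a ratio of 0.538 with a 95% interval of 0.447 to 0.648. The exact two-sided permutation test gave p = 0.1, the smallest possible. A dimmer ZEB2 probe set, at 8 on every array, gave no measure of change, and with the mean of both probe sets the log2 fold change was -0.45. The call was lost when any one of the 6 arrays was left out (adjusted p = 0.0588 to 0.127), with log2 fold changes of -0.98 to -0.80.

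ZEB1, the paralog of ZEB2 and likewise a repressor of CDH1, did not pass the test. It measured 18.8, 47.9 and 24.2 in Scr-sh and 33.3, 39.7 and 30.0 in SALL4-sh, with the highest and the lowest value both among the controls. Its log2 fold change was 0.29 (SE 0.40, adjusted p = 0.912), and without Scr-sh replicate 2, the highest array, it was 0.68 (adjusted p = 0.210). Between the paralogs, the log2 change of ZEB1 exceeded that of ZEB2 by 1.18, and the groups of the within-array difference did not overlap (exact two-sided permutation p = 0.1, 0.167 adjusted over the 5 pairs). The log2 changes of CDH1 and ZEB2 lay 1.80 apart, which follows from their own opposite changes. This pair was 1 of the 5 adjusted together (exact two-sided permutation p = 0.1), and no conclusion is drawn from its p-value. The adjusted 0.167 of the other pairs rests in part on its inclusion.

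SNAI1 (Snail) represses CDH1 early in EMT. It read 17.3, 15.2 and 22.8 in Scr-sh and 14.9, 14.6 and 17.4 in SALL4-sh, with overlapping groups and a log2 difference of -0.22 (SE 0.18, adjusted p = 0.714). SNAI2 (Slug), its relative, was at the floor on every array but Scr-sh replicate 2, where it read 8.34, and no level could be compared. TWIST1, a basic helix-loop-helix factor that induces CDH2 among others, read 46.6, 32.5 and 23.2 in Scr-sh and 45.0, 53.5 and 26.6 in SALL4-sh. Each group spread over 2.01-fold, and the log2 fold change of TWIST1 was 0.29 (SE 0.40, adjusted p = 0.914).

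VIM encodes vimentin, the intermediate filament of mesenchymal cells. Its intensity was 1615, 1117 and 1275 in Scr-sh and 1042, 940 and 1142 in SALL4-sh. The ranges overlapped, since the lowest control, replicate 2, was below the highest knockdown value. The log2 fold change was -0.35 (SE 0.17, adjusted p = 0.419), a ratio of 0.787 with a 95% interval of 0.577 to 1.07. FN1, the matrix protein fibronectin that mesenchymal cells deposit, gave only an upper bound of 8 in both groups, so the array did not show whether it changed. The pairs SNAI1 with SNAI2 and VIM with FN1 were among the 5 computed, but with SNAI2 and FN1 at or next to the floor they measure no difference between the genes and are not given.

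**Figure D3:**
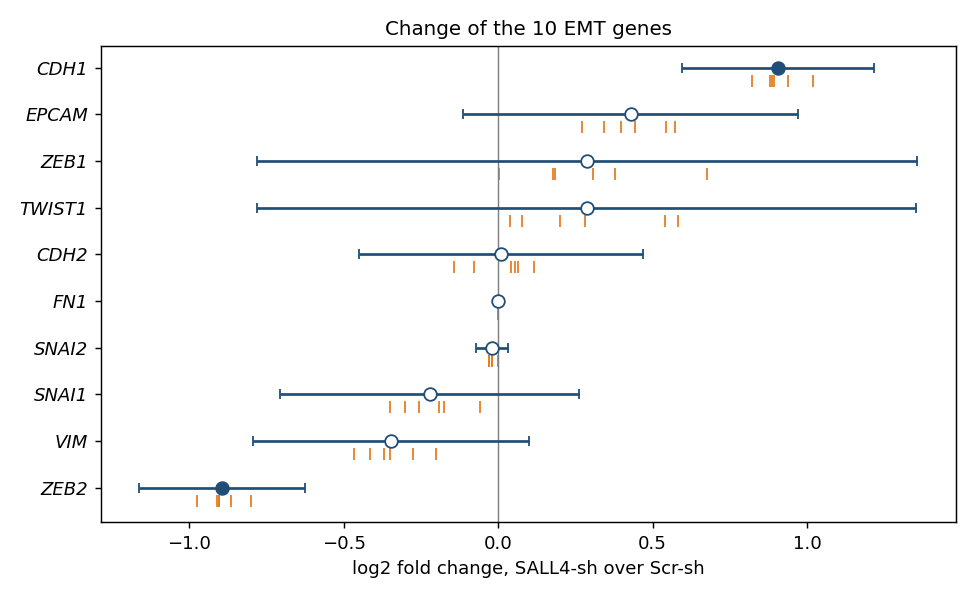
Log2 fold change (SALL4-sh over Scr-sh) of each EMT gene with its 95% confidence interval from limma; filled circles passed an adjusted p of 0.05, and the short orange marks show the value without each array in turn. CDH1 (0.91) and ZEB2 (-0.89) lie apart from 0 on either side, whereas ZEB1 and TWIST1, at 0.29 each, have the widest intervals.

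Limma without a filter on weak genes had few prior degrees of freedom (0.422). After removal of the genes in the low end of mean intensity, up to the 25th percentile, 11.5% of the remaining 13803 genes were called. In that fit 8 of the EMT genes were tested, FN1 and SNAI2 having been removed, and the calls were again CDH1 (adjusted p = 0.00965) and ZEB2 (adjusted p = 0.00892). Neither gene was called with trend and robust moderation in limma or with the replicate number as a block.

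The genes whose log2 levels followed CDH1 most closely over the 6 arrays were FEM1A, a substrate receptor of a ubiquitin ligase (Pearson r = 0.996), GHITM, a protein of the inner mitochondrial membrane (r = 0.994), and FIP1L1, a polyadenylation factor (r = 0.994). Those nearest to ZEB2 were XBP1, a transcription factor of the unfolded protein response (r = 0.999), LSM12, an RNA-binding protein (r = 0.999), and ATF7, a leucine zipper transcription factor (r = 0.998). XBP1 read 123, 108 and 114 in Scr-sh and 59.4, 53.9 and 43.9 in SALL4-sh, the same order of arrays as ZEB2 in both groups. The points fall into the 2 treatment groups, and 162 of 12746 genes had r above 0.95 with CDH1 and 240 with ZEB2.

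Other classical cadherins and CDH13 made a list of 17 genes, 15 of which were measured, while CDH4 and CDH13 were not. Of these, 6 were at the floor on all arrays, 1 fell and none rose. The one that fell was CDH7, a type II cadherin of the nervous system, with 257, 275 and 178 in Scr-sh and 82.7, 85.5 and 76.9 in SALL4-sh, all knockdown values below all controls. Its log2 fold change was -1.51 (SE 0.19, adjusted p = 0.0434, limma), and the call was lost when any array but Scr-sh replicate 3 was left out. CDH8, another type II cadherin, read 99.2, 93.1 and 94.6 against 66.3, 68.0 and 53.0, a log2 fold change of -0.62 that passed only with the 25th percentile filter (adjusted p = 0.0833 without it and 0.0400 with it). CDH3 (P-cadherin) had separate groups and a log2 fold change of -0.75 without passing either fit (adjusted p = 0.303). CDH6 (K-cadherin) ranged from 980 to 1309 in Scr-sh and from 817 to 992 in SALL4-sh, with overlapping groups. CDH3, CDH6 and CDH8 were singled out after their values were seen. The median log2 fold change of the list was 0 with the genes at the floor counted in. Over the 9 genes above the floor on some array it was -0.17, beside 0.01 for all such genes. The groups did not overlap for 3 of these 9, all lower in SALL4-sh, beside 27.5% of all such genes.

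**Figure D4:**
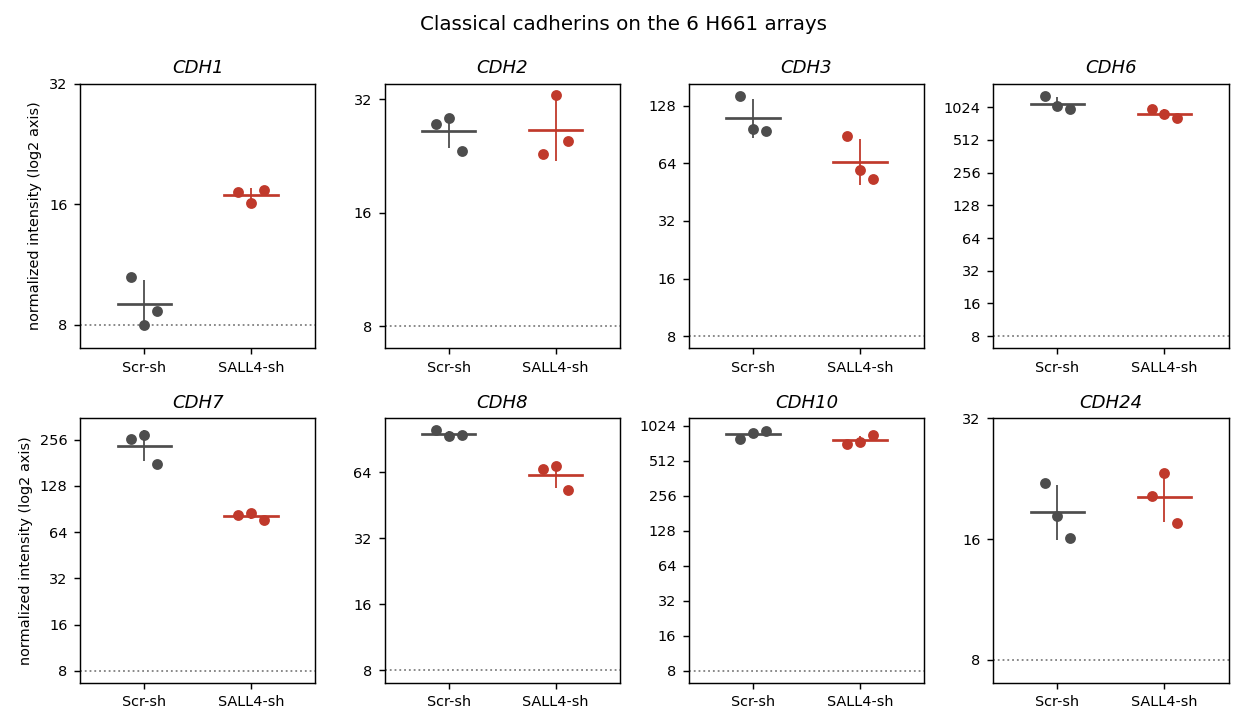
Normalized intensity (log2 axis) of 8 classical cadherins on the 3 Scr-sh (grey) and 3 SALL4-sh (red) arrays, with the mean and 1 SD of log2 values and the floor of 8 dotted. CDH1 was higher in all SALL4-sh arrays, CDH3, CDH7 and CDH8 were lower in all, and CDH2, CDH6, CDH10 and CDH24 overlapped between groups.

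Among 12 catenins and other proteins that bind the cadherin tail, none passed the test, and their median log2 fold change was -0.43. The groups did not overlap for 5 of them, 4 of which were lower in SALL4-sh, beside 27.5% of all genes above the floor on some array. AFDN (afadin), which couples nectins to actin, gave a log2 fold change of -0.53 (adjusted p = 0.0862). PKP4, an armadillo protein of the p120 catenin family, went the other way, from 123, 84.3 and 103 in Scr-sh to 186, 218 and 148 in SALL4-sh, and its log2 difference of 0.83 passed with the 25th percentile filter (adjusted p = 0.0332, and 0.158 without it). The beta-catenin gene CTNNB1, picked after its values were seen, overlapped between groups and differed by -0.13 in log2 (adjusted p = 0.984).

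Other transcription factors that promote EMT did not pass the test in any of 9 measured. The smallest adjusted p-values were those of TCF4 (E2-2; log2 fold change 0.33, adjusted p = 0.208), whose control values all stood at the floor, and FOXQ1 (0.14, adjusted p = 0.672). Regulators of the epithelial state were also not called in 11 measured, and 3 of them, the epithelial factors GRHL2, ELF3 and EHF, were at the floor throughout. KLF5, a Krüppel-like factor of proliferating epithelium, read 68.2, 88.7 and 71.5 in Scr-sh and 51.7, 44.9 and 44.7 in SALL4-sh (log2 fold change -0.69). KLF4, which is known to sustain CDH1 transcription, read 14.1, 25.3 and 16.1 against 8, 8 and 9.26 (log2 fold change -1.09, limited by the floor). Both passed with the 25th percentile filter (adjusted p = 0.0314 and 0.0160) but not without it (0.0898 and 0.128).

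Of the miR-200 family, whose sequences are shown above, only MIR200B and MIR429 had a value above the floor. MIR200B ranged from 11.7 to 14.2 in Scr-sh and from 11.9 to 13.4 in SALL4-sh, and MIR429 read 8, 10.3 and 8.89 against 9.61, 8.57 and 8.37. Both groups overlapped, with log2 fold changes of -0.02 and -0.03 (adjusted p = 1.0 each). MIR200A, MIR200C and MIR141 stood at the floor on all 6 arrays, as did MIR34A, MIR34B and MIR203A, which target SNAI RNAs. These are probe sets named for the microRNA genes, and the sources used here do not say whether they read the mature RNA.

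Proteins that act with the EMT factors were listed in 2 groups. Of 14 corepressors and cofactors of SNAI and ZEB proteins, none passed the unfiltered test. KAT2B (PCAF), a histone acetyltransferase that binds ZEB1, read 110, 103 and 133 in Scr-sh and 54.6, 54.1 and 39.8 in SALL4-sh, which is a log2 difference of -1.23 (adjusted p = 0.0549, and 0.00462 with the 25th percentile filter). HDAC2, a histone deacetylase that SNAI1 recruits, read 349, 376 and 423 against 523, 598 and 604, a log2 difference of 0.59 (adjusted p = 0.0742, and 0.0452 with the filter). Its paralog HDAC1 in the same list, named after its values were seen, went the other way without overlap. HDAC1 read 355, 333 and 397 against 301, 246 and 300, a log2 difference of -0.36 (adjusted p = 0.226, and 0.218 with the filter). Of 12 kinases and ligases that control the stability of SNAI, ZEB and TWIST proteins, none passed the unfiltered test either. FBXO45, a ubiquitin ligase receptor that targets EMT factors for degradation, read 12.3, 14.5 and 8.11 in Scr-sh and 48.6, 50.9 and 30.7 in SALL4-sh, so that all knockdown values exceeded all controls. The log2 fold change was 1.91 (adjusted p = 0.0747, and 0.00317 with the filter), from controls near the floor. BTRC (beta-TrCP), the ligase receptor for phosphorylated SNAI1, was the other gene of this list that passed with the filter (log2 fold change 1.09, adjusted p = 0.0426), and was named after its values were seen. For FBXL14, a ligase receptor for SNAI1, the log2 fold change was -0.26 (adjusted p = 0.150).

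None of 18 genes of the TGF-beta pathway, a major inducer of EMT, passed the test, and their median log2 fold change was 0.02. BAMBI, a decoy receptor that dampens TGF-beta signaling, read 63.1, 96.8 and 73.2 in Scr-sh and 21.2, 22.2 and 35.7 in SALL4-sh (log2 fold change -1.58, adjusted p = 0.0849, and 0.00473 with the 25th percentile filter). For ID2, an inhibitor of basic helix-loop-helix factors, the log2 fold change was -0.87 (adjusted p = 0.285). Without Scr-sh replicate 2, 2 genes of this list were called higher, beside 231 of all 18404 genes in that fit.

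Of 16 further mesenchymal genes 1 fell, MMP2, a gelatinase that cleaves basement membrane collagen. It read 41.7, 40.2 and 31.9 in Scr-sh and 16.2, 11.01 and 14.8 in SALL4-sh, without overlap, and changed by a log2 fold of -1.45 (SE 0.20, adjusted p = 0.0492, limma). The SALL4-sh values of MMP2 were near the floor. No gene of the list was called when any one of the 6 arrays was left out. ITGA5, the alpha chain of the fibronectin receptor, read 255, 185 and 169 against 95.8, 84.8 and 82.6 (log2 fold change -1.19) and passed with the filter (adjusted p = 0.0598 without it and 0.00566 with it). SPARC, a matrix glycoprotein, and ACTA2, smooth muscle actin, overlapped between groups, with log2 fold changes of -0.11 and -0.12. By median, the 16 genes changed by -0.10 in log2. The groups stood apart for 4 genes lower in SALL4-sh, MMP2 and ITGA5 among them, and for 1 higher. Of all genes above the floor on some array, 27.5% had separate groups. The higher gene was NES, which read 13.7, 14.5 and 15.6 in Scr-sh and 16.8, 19.9 and 20.4 in SALL4-sh. NES differed by 0.38 in log2 and was not called with or without the filter. ITGA5, SPARC, ACTA2 and NES were picked after their values were seen. Of 8 EPCAM partners and proteases none was called, and ADAM17 and PSEN2, which take part in its cleavage, had log2 fold changes of 0.46 and 0.48 (adjusted p = 0.221 and 0.330).

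Over these 10 lists, 123 of 135 genes were measured, 19 were at the floor on all arrays, none was called higher and 2 were called lower, beside the 1.18% and 1.33% of all genes. With the 25th percentile filter, 4 were called higher and 8 lower among the 101 tested, beside 11.5% of all genes called in either direction.

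**Figure D5:**
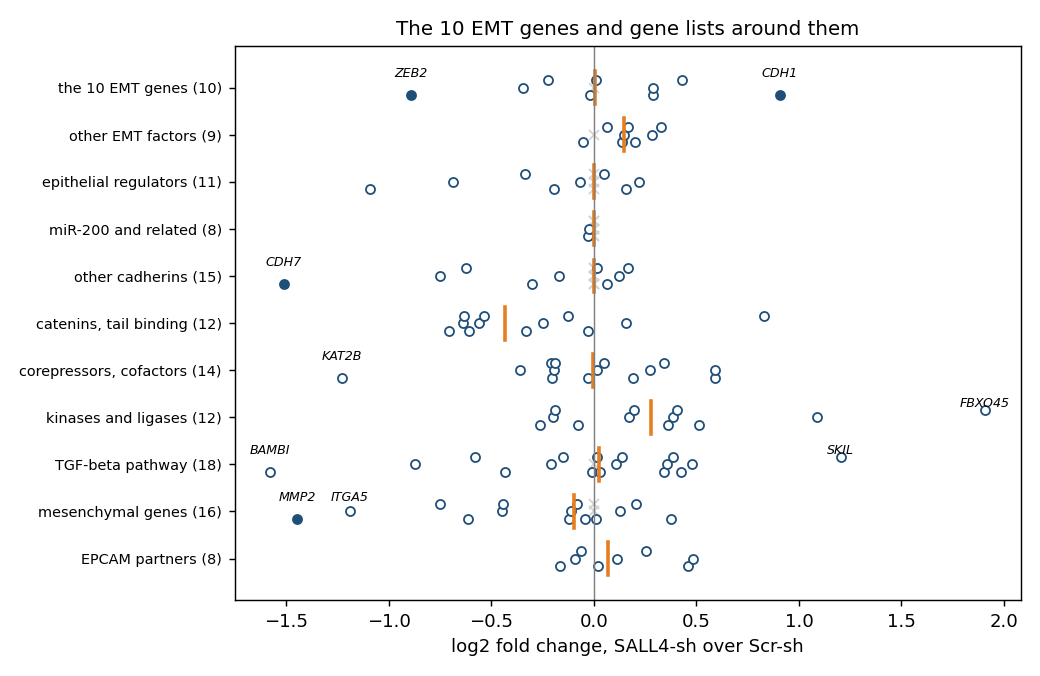
Log2 fold change (SALL4-sh over Scr-sh) of every measured gene in each list, with the number measured in brackets; filled circles passed an adjusted p of 0.05 without a filter, crosses mark genes at 8 on every array and orange bars are list medians. Only CDH1, ZEB2, CDH7 and MMP2 are filled, and the medians run from -0.43 for the catenin list to 0.28 for the kinases and ligases.

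The identity of the cells was read from marker genes. Of 8 epithelial and lung carcinoma markers, KRT18 read 41.5, 76.7 and 49.98 in Scr-sh and 28.8, 57.0 and 39.1 in SALL4-sh, KRT8 was at most 11.1, and none was called. KRT7, KRT19, NKX2-1 and SFTPC were at most 16.8, and SFTPB and NAPSA at most 9.67. The summed intensity of the 8 markers was 116 to 151 in Scr-sh and 108 to 137 in SALL4-sh. Every marker at the floor still adds 8 to such a sum, so the marker sums given here do not settle which cells were present. Of 9 fibroblast markers, DCN and FAP were at 8 on every array, and the summed intensity was 495 to 558 in Scr-sh and 351 to 427 in SALL4-sh. COL1A1, a chain of type I collagen, fell (log2 fold change -0.48, adjusted p = 0.0387, and 0.0735 with the 25th percentile filter), and COL1A2 and THY1 also had separate groups with log2 fold changes of -0.79 and -0.76. The other 4 markers above the floor overlapped between groups, with log2 fold changes of 0.24 for COL3A1, -0.31 for PDGFRA, -0.07 for PDGFRB and -0.03 for LUM. The 3 markers with separate groups were lower in SALL4-sh, as were MMP2 and ZEB2, and their part in those results was not tested. Of 9 leukocyte markers, 5 stood at the floor throughout, PTPRC among them, and the sums were 119 to 153 and 117 to 125. CD68 read 34.0, 69.9 and 71.6 in Scr-sh and 33.0, 35.4 and 30.5 in SALL4-sh. NKG7 ranged from 24.1 to 26.6 and from 25.3 to 35.5, while CD14 and ITGAM were at most 9.99. Of 6 endothelial markers, 4 stood at the floor throughout, PECAM1 and VWF among them, and the sums were 70.5 to 78.2 and 76.3 to 79.3.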

How the data were processed

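Total RNA of H661 cells was labelled with biotin and hybridized to Affymetrix arrays. The authors deposited normalized intensity values on a linear scale for 32321 probe sets, processed with RMA per the submitters' processing notes (version not given in the sources used here), with a floor of 8. The labels and the study's methods name different serum shares and RNA kits. Log2 values were taken. Of the probe sets, 19158 had 1 symbol, 1388 several and 11775 none listed, and the one with the highest mean stood for each gene.

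The group comparison used limma 3.58.1 under R 4.3.3 (no trend, no filter, Benjamini-Hochberg, threshold 0.05), and single values and 5 pairs with an exact permutation test (two-sided, 20 labelings). The test was also run on simulated data, with changes added only to genes of mean log2 above 5. Genes near the floor such as CDH1 were thus not covered, and the outcome is not reported here. Arrays carry no read depth, and precision depended on their number and on the spread of each gene, with an SE of 0.10 for ZEB2 and 0.40 for ZEB1.

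The genes and lists were chosen with earlier results of these data known. Named were the 10 genes, SALL4, the called genes of each list or, where none was called, up to 2 with the smallest adjusted p, and 3 genes most like CDH1 and ZEB2. Genes outside this rule are said to be so, except cell markers and genes at the floor. Alternatives were other normalizations, filters, floors, moderation, array weights, the replicate block, the one-way ANOVA the study names and each array left out.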

Additional observations from a re-analysis of the deposited data

How the results depend on the processing

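CDH1 kept a positive and ZEB2 a negative log2 fold change under every alternative that tested it (0.08 to 1.02 and -0.99 to -0.45), but their calls depended on the setting, with adjusted p-values of 0.00965 to 0.390 and 0.00815 to 0.127. The 1 EMT gene called higher became 0 with the 50th percentile filter (which removed CDH1 from the test), a floor of 16, eBayes with trend and robust, the replicate block and the one-way ANOVA, and 0 to 1 with an array left out. The 1 called lower became 0 with trend and robust, the replicate block and the ANOVA, and also with any 1 array left out. With the replicate number as a block the adjusted p was 0.133 for CDH1, 0.119 for ZEB2 and 0.115 for SALL4. Arrays of the same number in the 2 groups deviated together with r of 0.144, 0.114 and 0.00033, and arrays of unlike number with r of -0.152 to 0.034. These values do not settle whether the numbers were pairs. The main fit left them unpaired, and the calls of CDH1, ZEB2 and SALL4 depend on that choice.

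CDH2 had a log2 fold change of 0.01 that changed sign with cyclic loess (-0.0018) and quantile normalization (-0.0147), and ranged from -0.14 to 0.12 with an array left out. No other EMT gene above the floor changed sign in a fit with 1 value per gene, though the dimmer EPCAM probe set taken alone differed by -0.09 in log2. Over all genes, calls higher and lower were 821 and 764 with the 25th percentile filter, 825 and 740 with the 50th, 633 and 610 without genes at the floor on all arrays, 26 and 50 with trend and robust, 3 and 7 with the replicate block, 94 and 121 with the ANOVA, 1757 and 1449 at unadjusted p, and 23 to 231 and 29 to 173 with an array left out. The cause of these differences was not tested. Signal near the floor limits CDH1, SNAI2, FN1 and the microRNA genes.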
